A study of Mus musculus with 2 samples.

Results

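The 83 genes described here are named as genes for proteins of the cytoplasmic ribosome in the mouse, and a few such genes fall outside the name pattern. They were chosen by a rule on names, with earlier results of these data known. The rule takes protein-coding genes whose symbol follows the Rpl or Rps pattern with a number. It adds Rplp0, Rplp1, Rplp2 and Rpsa and leaves out the Rps6k kinases. The members are 83 of 43346 genes quantified and of 21474 protein-coding genes. By symbol, 51 belong to the large subunit and 32 to the small subunit. Of the 83, 6 are paralogues with an l suffix (Rpl3l, Rpl7l1, Rpl10l, Rpl22l1, Rpl39l and Rps27l), which leaves 46 large-subunit and 31 small-subunit genes. The data are total RNA-seq of mouse limb at embryonic day 11.5, strain B6NCrl, as 2 biological replicates of 1 group, made from pools of 109 and 88 embryos of both sexes. No embryo was treated and no gene was altered, so the design holds no contrast between conditions. Each library was made from 10 ng of RNA above 200 nt in length, with added spike-in RNAs. Each value below is from whole limb, in which fewer cells of a type and less RNA per cell cannot be told apart.

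A ribosome joins a large and a small subunit, each built from ribosomal RNA and many small basic proteins that are present once per particle, with the stalk proteins Rplp1 and Rplp2 present as dimers. The small subunit reads the messenger RNA and the large subunit forms the peptide bond. The messenger RNAs of these proteins are among the most abundant in growing cells, and most start with a run of pyrimidines, the terminal oligopyrimidine (TOP) motif, through which their translation is controlled. Altered doses of single ribosomal proteins cause tissue-restricted defects, including skeletal patterning changes with loss of Rpl38 in the mouse and anaemia, in some patients with limb malformations, in humans with RPL5, RPL11 or RPS19 mutations.

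The libraries held 43.0 M and 35.1 M estimated counts, and genes took 40.6 M and 32.3 M of these. Spike-ins took 11.8% of all TPM (reads per transcript length, scaled to 1 total in each library) in replicate 1 and 17.2% in replicate 2. All 8 listed markers of limb mesenchyme, such as Prrx1 and Msx1, were at 1 TPM or more in both libraries, and they summed to 954 and 889 TPM. All 8 skeletal muscle markers and all 4 red cell globins also reached 1 TPM, while none of 6 male germ line markers did and 3 of those 6 had no counts.

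Nearly all ribosomal protein genes were strongly expressed. In both libraries 80 of the 83 were at 1 TPM or more, and 79 (95.2%) were at 100 TPM or more, a level that 6.61% of all protein-coding genes reached. The 83 genes together took 6.59% of the TPM in replicate 1 and 6.13% in replicate 2. With spike-ins left out of the total, these shares were 7.47% and 7.40%. The median gene stood at 779 TPM in replicate 1 and 715 TPM in replicate 2, against 3.06 and 2.91 TPM for all protein-coding genes. The deposited TPM was lower in replicate 2 for 79 of the 83; the part of that library's larger spike-in share in this was not tested.

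The highest level belonged to Rpl41, whose protein of 25 residues is the shortest of the set. Rpl41 reached 3208 TPM in replicate 1 and 2980 TPM in replicate 2. It ranked 11 among all protein-coding genes by mean TPM. Its whole coding sequence of 75 bases, without the stop codon, is shown because of its size; the gene lies on the minus strand at chr10:128548114-128549305 (GRCm38, the mm10 build), and the sequence is from GENCODE M21.
Rpl41: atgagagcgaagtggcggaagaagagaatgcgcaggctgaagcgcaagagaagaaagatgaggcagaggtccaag

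Next came Rps19, a small-subunit protein needed for maturation of the small-subunit RNA, at 1876 and 1691 TPM. Rpl32 followed at 1685 and 1599 TPM and Rps14, a protein of the platform of the small subunit, at 1639 and 1484 TPM. Rpl41 lay far above the other 82 genes, whereas the ranges of Rpl32 and Rps14 overlapped, with Rpl32 the higher in each library. Rpl37a stood at 1377 and 1330 TPM, and Rpl7 at 1320 and 1235 TPM. Rpl36 stood at 1289 and 1233 TPM, Rps29 at 1255 and 1243 TPM, and Rps18 at 1271 and 1178 TPM. The ranges of Rpl7, Rpl36, Rps29 and Rps18 overlapped. Within each library Rpl7 was above Rpl36 and Rpl36 above Rps18, and only Rps29 changed place among them. In both libraries 20 genes were at 1000 TPM or more and 58 at 500 TPM or more. The order at the high end also depends on near-identical copies, described below. With the copies' TPM added, Rps29 (2488 and 2443 TPM) and Rpl13 (2166 and 1950 TPM) were above Rps19 (1894 and 1709 TPM). The place of Rps29 depended on the short annotated length of its copies. With copies' counts converted at the member's own length, Rps29 (mean 1550 TPM) was below Rps19 (1800 TPM). Rpl13 (1869 TPM) stayed above Rps19.

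At the low end, Rpl10l had no count in either library, Rpl3l had 0 and 2 counts, and Rpl39l had 5 and 9 counts. These 3 l-suffix paralogues are treated with their partners below. Above this gap of more than 100-fold came Rpl5, at 72.9 and 71.9 TPM. Rpl5 carries the smallest ribosomal RNA into the large subunit together with Rpl11 and, unassembled, binds the p53 regulator Mdm2. Rpl27a stood at 123 and 102 TPM, Rpl7l1 at 134 and 133 TPM, and Rpl12, at the base of the stalk, at 155 and 141 TPM. Rpl27 stood at 218 and 191 TPM, Rps12 at 256 and 207 TPM, and Rpl37 at 248 and 244 TPM. In this stretch the ranges of Rps12 and Rpl37 overlapped, and their order differed between libraries. Those of Rpl27 and Rps12 overlapped too, with Rps12 the higher in each library. Rpl5 lay below every other gene except Rpl10l, Rpl3l and Rpl39l in both libraries.

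**Figure D1:**
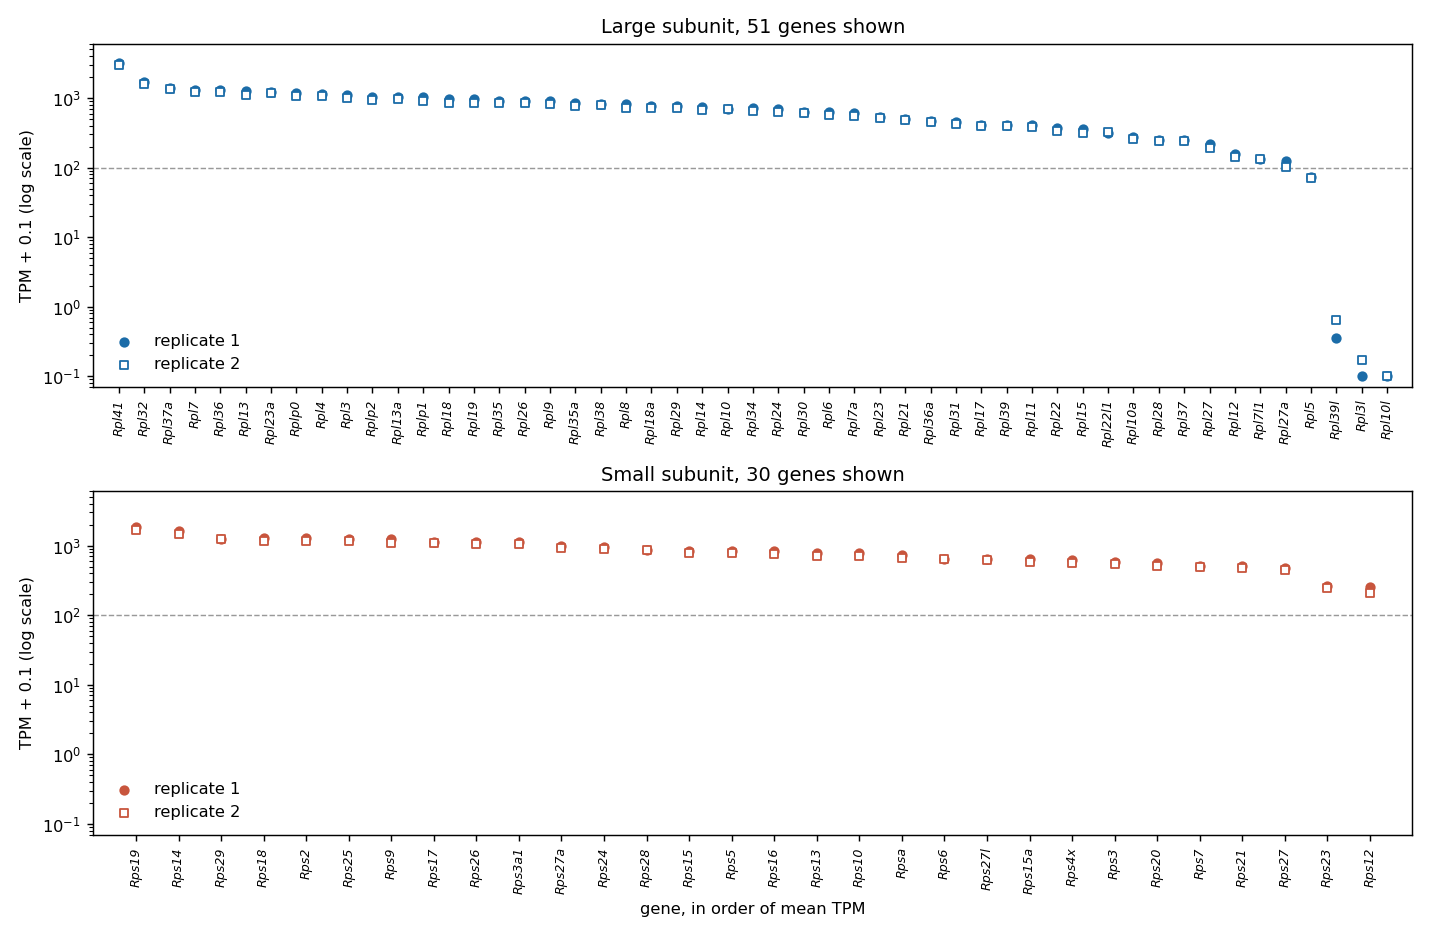
Level of 81 of the 83 genes as TPM + 0.1 on a log axis, large subunit above and small subunit below, in order of mean TPM; circles are replicate 1, squares replicate 2, and the dashed line marks 100 TPM. The libraries lie close together for each gene of 100 TPM or more, and the large subunit has the longer tail of low genes, ending in Rpl5 and the 3 paralogues with 14 counts or fewer over both libraries.

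Small-subunit genes had the higher median. In replicate 1 the median was 703 TPM over 51 large-subunit genes and 847 TPM over 32 small-subunit genes. In replicate 2 the medians were 662 and 795 TPM. The ratio of large to small medians was 0.830 in replicate 1 and 0.832 in replicate 2 (mean 0.831 ± 0.00155, SD, n = 2). Without the l-suffix paralogues it was 0.893 and 0.879 (mean 0.886 ± 0.0101, SD, n = 2). Genes are not replicates of a subunit, so no test was made on this ratio. By summed TPM the large subunit exceeded the small one 1.28-fold in each library, with its larger number of genes.

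Large-subunit genes had the wider spread of gene levels. The 90th percentile was 8.89 times the 10th percentile among large-subunit genes and 2.52 times among small-subunit genes. Without the paralogues the large-subunit value was 4.95. The lowest small-subunit genes were Rps12, Rps23 and Rps27, and the lowest of these, Rps12, still stood at 256 and 207 TPM. Rps23, which sits at the decoding centre, stood at 260 and 248 TPM. These positions and spreads depend on near-identical copies, described below: with copies added, Rps23 (1562 and 1527 TPM) and Rps27 were 5th and 6th of the 32 by mean, and the lowest were Rps21, Rps20 and Rps3. The 90th over 10th percentile was then 4.09 for the large and 2.68 for the small subunit, or 2.90 and 2.69 without the l-suffix paralogues. With copies' counts converted at the member's own length, Rps23 came to a mean of 896 TPM and Rps27 to 2321 TPM. Rps12 (520 TPM) was then below Rps20 (537 TPM). The mitochondrial ribosome, made from a separate gene set, lay lower: 77 genes of that set had medians of 87.1 and 79.3 TPM, and 31 of the 77 were at 100 TPM or more in both libraries. Its highest members were Mrps21 (272 TPM ± 23.1, SD, n = 2), Mrpl17 and Mrpl42, and its lowest were Mrpl35, Mrpl1 and Mrpl57. There the large-subunit median was the higher, with a ratio of 1.30 in replicate 1 and 1.36 in replicate 2.

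Among members with a known role in a tissue or a signal, the stalk proteins were close to each other. Rplp0, the stalk's base, stood at 1186 and 1057 TPM, Rplp1 at 1028 and 908 TPM, and Rplp2 at 1051 and 948 TPM. The ranges of Rplp1 and Rplp2 overlapped, with Rplp2 the higher in each library. Both were below Rplp0, although the stalk holds more copies of each of them than of Rplp0. Rpl38, lost in the Tail-short mouse with its vertebral changes, stood at 810 and 796 TPM. Rpl24, altered in the Belly spot and tail mouse, stood at 703 and 637 TPM, and Rpl29, whose loss gives small mice with fragile bones, at 779 and 709 TPM. Rpl10a stood at 272 and 262 TPM, lower in both libraries than Rpl38, Rpl24 and Rpl29. With near-identical copies added, described below, Rpl10a came to 576 and 528 TPM. It was still below Rpl38 (1107 and 997 TPM), Rpl24 (740 and 700 TPM) and Rpl29 (800 and 734 TPM).

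Rps6, the substrate of the S6 kinases, stood at 649.7 and 649.6 TPM. Rps7 stood at 516 and 499 TPM, Rps20, mutated in a dark-skinned mouse, at 556 and 517 TPM, and Rps24 at 952 and 886 TPM. Rpl11, the partner of Rpl5 in binding Mdm2, stood at 405 and 386 TPM, above Rpl5 in both libraries. With near-identical copies added, which are described below, the order turned, with 688 and 659 TPM for Rpl11 and 875 and 790 TPM for Rpl5. Rpl26, which binds p53 messenger RNA, stood at 907 and 852 TPM. Rpsa, also known as the laminin receptor precursor, stood at 731 and 654 TPM. Rpl26 was thus the highest of Rpl11, Rpl26 and Rpsa in both libraries, and Rpl11 the lowest.

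The l-suffix paralogues fell into those near their partner's level, those below it and those with few or no counts. Rps27l, a p53 target whose protein is 96.4% identical to that of Rps27 over 84 residues, stood at 646 and 625 TPM. Rps27 itself stood at 475 and 448 TPM, so Rps27l was the higher in both libraries and held 57.6% and 58.3% of the pair's TPM. The log2 ratio of Rps27l to Rps27 was 0.46 ± 0.026 (SD, n = 2), and its direction turned once a second gene with the coding sequence of Rps27 was counted with Rps27, as given below. The first 120 coding bases of each are printed because reads can tell the genes apart by them: 28 bases, in capitals, differ. The genes lie on the minus strand at chr3:90212522-90213651 (Rps27) and on the plus strand at chr9:66946086-66949516 (Rps27l), GRCm38, GENCODE M21.
Rps27: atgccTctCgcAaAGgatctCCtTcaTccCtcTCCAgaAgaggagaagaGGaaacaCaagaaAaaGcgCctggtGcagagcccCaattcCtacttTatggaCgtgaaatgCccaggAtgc
Rps27l: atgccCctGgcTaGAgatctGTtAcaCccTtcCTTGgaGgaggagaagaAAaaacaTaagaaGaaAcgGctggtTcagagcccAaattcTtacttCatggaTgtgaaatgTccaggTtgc

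Over the whole coding sequence of 252 bases, Rps27 and Rps27l differ at 60 positions. A further gene, Rps27rt on chromosome 9, falls outside the name pattern and has a coding sequence identical to that of Rps27. Rps27rt stood at 1097 and 1044 TPM, above Rps27 and Rps27l in both libraries. Since Rps27 and Rps27rt share every coding base, the division of reads between them was an estimate of the authors' quantification, and the level of Rps27 alone is uncertain. With its near-identical copies added, of which Rps27rt is the main one, Rps27 came to 1572 and 1492 TPM. Rps27l, which has no such copy, then held 29.1% and 29.5% of the total, and the log2 ratio was −1.27 ± 0.019 (SD, n = 2).

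Rpl22l1 and Rpl22 were nearly equal. Rpl22l1, which like Rpl22 binds RNA outside the ribosome and has a protein 70.3% identical to it, stood at 314 and 321 TPM. Rpl22 stood at 368 and 335 TPM. The paralogue held 46.1% and 49.0% of the pair's TPM, and the log2 ratio of −0.14 ± 0.12 (SD, n = 2) was close in size to its difference between libraries. Rpl36al, an l-suffix gene that the name pattern misses, encodes the same protein as Rpl36a, with 39 of 318 coding bases different. Rpl36al stood at 463 and 459 TPM, and Rpl36a, on the X chromosome, at 461 and 458 TPM, a log2 ratio of 0.0048 ± 0.0019 (SD, n = 2).

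Rpl7l1 lay well below its partner. It stood at 134 and 133 TPM against 1320 and 1235 TPM for Rpl7, and held 9.20% and 9.72% of the pair's TPM (log2 ratio −3.26 ± 0.062, SD, n = 2). Its protein shares 40.7% of residues with Rpl7, the lowest identity among the pairs. Rps4l, annotated as a transcribed processed pseudogene and so no member, stood at 188 and 167 TPM against 616 and 561 TPM for Rps4x (log2 ratio −1.73 ± 0.025, SD, n = 2).

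The other 3 paralogues were at or near the detection limit. Rpl10l, an intronless gene known for replacing X-linked Rpl10 in male germ cells, had 0 counts in both libraries, which allows up to 0.115 TPM in replicate 1 and 0.139 TPM in replicate 2, at 3 counts per library. Rpl10 stood at 696 and 690 TPM, at least 6034-fold and 4969-fold higher than those limits. Rpl3l, known from striated muscle, had 0 counts in replicate 1, and Rpl3 at 1112 TPM was at least 9434-fold higher than the 3-count limit there. In replicate 2, with 2 counts of Rpl3l, Rpl3 was 14268 times higher (95% exact Poisson interval 3950 to 117814, counting error only). The muscle markers summed to 205 and 183 TPM in the same libraries. Intervals and limits cover counting error only.

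Rpl39l, known from the male germ line, had 5 counts in replicate 1 (0.25 TPM, 95% exact Poisson interval 0.0812 to 0.583) and 9 in replicate 2 (0.54 TPM, 0.247 to 1.03). Rpl39 stood at 407 and 397 TPM, 1629 times (698 to 5018) and 735 times (387 to 1608) higher. The whole coding sequences, of 153 bases each, are printed to show how far Rpl39l can be told from the abundant Rpl39 messenger RNA. They differ at 23 positions, in capitals, and their proteins at 3 of 51 residues. Rpl39 lies on the minus strand at chrX:37082520-37085402 and Rpl39l on the plus strand at chr16:10170226-10174911 (GRCm38, GENCODE M21).
Rpl39: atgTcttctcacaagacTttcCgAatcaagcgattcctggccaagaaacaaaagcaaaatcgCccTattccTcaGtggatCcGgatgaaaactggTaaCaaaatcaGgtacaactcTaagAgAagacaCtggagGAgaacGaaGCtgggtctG
Rpl39l: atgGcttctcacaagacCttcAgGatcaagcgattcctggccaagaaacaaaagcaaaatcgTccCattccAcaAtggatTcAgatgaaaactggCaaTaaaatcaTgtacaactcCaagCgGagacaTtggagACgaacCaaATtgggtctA

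**Figure D2:**
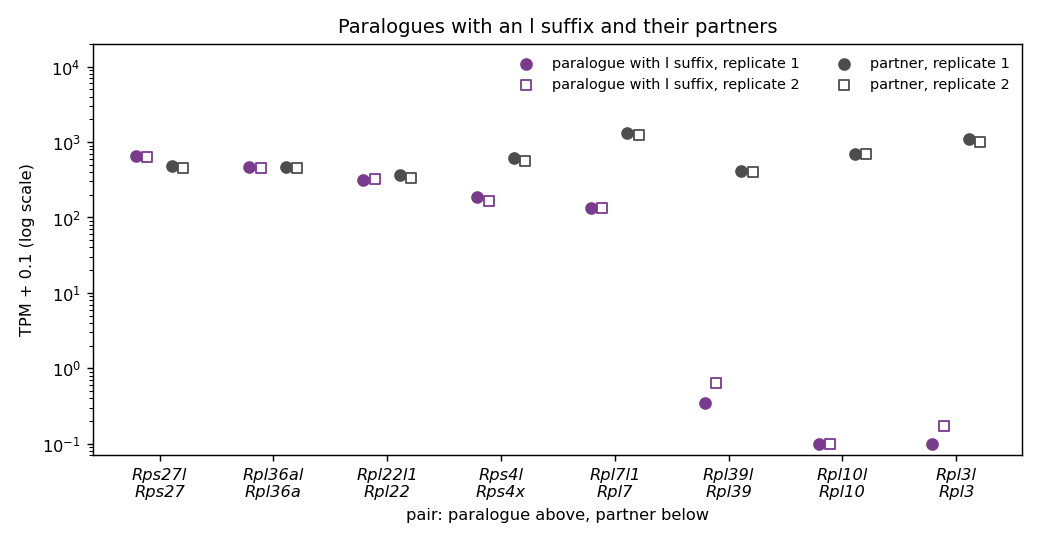
Level of each l-suffix paralogue (purple) and its partner (grey) as TPM + 0.1 on a log axis; circles are replicate 1 and squares replicate 2. Rps27l lies above Rps27, Rpl36al and Rpl22l1 lie near their partners, Rps4l and Rpl7l1 lie below, and Rpl39l, Rpl10l and Rpl3l lie at 0.54 TPM or less.

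Ribosomal protein genes are known for their many processed pseudogenes, copies of the messenger RNA inserted elsewhere in the genome, and these bear on every level above. Each member's coding sequence was compared with all other annotated transcripts. Of other genes, 411 held a copy of at least 95% identity over at least 80% of the coding sequence of 1 of 73 members: 395 are annotated as pseudogenes and 14 as protein-coding. Rpl21 had the most, with 40. In both libraries 116 of the 411 were at 1 TPM or more and 25 at 100 TPM or more. Among those 25, 19 had no difference from the member over the aligned coding bases, which in Rps23-ps1 were 99.1% of the coding sequence, and the others had up to 3 substitutions, or 15 gap bases in the case of Rps12l1. The 2 copies of other types include Gm10076, a long non-coding RNA identical to the Rpl41 coding sequence, at 266 and 240 TPM. The 411 copies summed to 17474 and 16154 TPM, beside 65913 and 61319 TPM for the 83 members.

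Some of the abundant copies exceeded their own parent genes, and others, such as Gm14303 (1233 and 1200 TPM, a copy of Rps29), did not. Rps23-ps1, a processed pseudogene on chromosome 3, stood at 1295 and 1271 TPM against 260 and 248 TPM for Rps23. Gm15500, which matches Rpl5 at every coding base, stood at 802 and 718 TPM against 72.9 and 71.9 TPM for Rpl5. Rpl15-ps3 stood at 987 and 933 TPM, where Rpl15 had 365 and 315 TPM. The pseudogenes Gm11518 and Rpl27-ps3, both identical to the Rpl27 coding sequence, stood at 567 and 548 TPM and at 584 and 525 TPM, each above Rpl27. In each of these cases the copy was higher than the parent in both libraries, and the parent's own level is uncertain to that extent.

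A few copies can be told from the parent by 1 coding base, and 3 are shown with the 20 bases on each side, the differing base in capitals. Rpl11 (chr4:136028265-136053428, minus strand) differs from Gm10288 (chr3:146838811-146839347, minus strand) at coding position 86, Rpl37 (chr15:5116645-5119140, plus strand) from Rpl37rt (chr5:115102923-115110268, minus strand) at position 249, and Rpl35 (chr2:39001580-39005624, minus strand) from Gm2000 (chr1:156366040-156366484, plus strand) at position 117, counted from the first base of the coding sequence. The coordinates are those of the genes in GRCm38, and the sequences are from GENCODE M21 transcripts.
Rpl11: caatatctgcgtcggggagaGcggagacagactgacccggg
Gm10288: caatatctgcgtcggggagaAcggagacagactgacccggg
Rpl37: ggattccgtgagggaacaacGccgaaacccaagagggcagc
Rpl37rt: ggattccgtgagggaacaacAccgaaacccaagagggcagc
Rpl35: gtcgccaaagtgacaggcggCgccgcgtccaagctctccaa
Gm2000: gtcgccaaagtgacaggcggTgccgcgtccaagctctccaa

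Gm10288 stood at 282 and 270 TPM beside 405 and 386 TPM for Rpl11. Rpl37rt stood at 722 and 696 TPM beside 248 and 244 TPM for Rpl37. Gm2000 stood at 839 and 759 TPM beside 911 and 862 TPM for Rpl35. By TPM, Rpl37 was thus below its copy in both libraries, and Rpl11 and Rpl35 above theirs. By estimated counts Rpl37 was above its copy, with 5363.5 against 4062.5 in replicate 1 and 4388.1 against 3240.9 in replicate 2.

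Of 77 members without an l suffix, 22 had at least 25% of the TPM of member and copies in the copies, 13 had at least 50% and 4 had at least 75%. The highest shares were those of Rpl5 (91.3%), Rpl27 (84.5%), Rps23 (83.6%) and Rpl27a (83.0%). By estimated counts, which do not divide by the short annotated length of a processed copy, the shares of the same genes were 87.9%, 76.0%, 71.7% and 62.9%. All 9 of the 77 members below 300 TPM had at least 25% of the sum in copies, a share that rises as the member's own level falls.

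Adding the copies to their parents narrowed the range of the 77 members. The 90th percentile was 4.79 times the 10th for members alone and 2.87 times with copies added. With copies' counts converted at the member's own length it was 3.11. The number of members below 300 TPM went from 9 to 0, the lowest value from 72.4 to 351 TPM, and the median from 768 to 955 TPM. Sums can only raise a member, so the upward shift is by construction. The ratio of large to small subunit medians over all 83 was 0.810 ± 0.0081 (SD, n = 2) with copies added, against 0.831 without them. Whether the copies are transcribed or received reads of their parents was not tested.

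**Figure D3:**
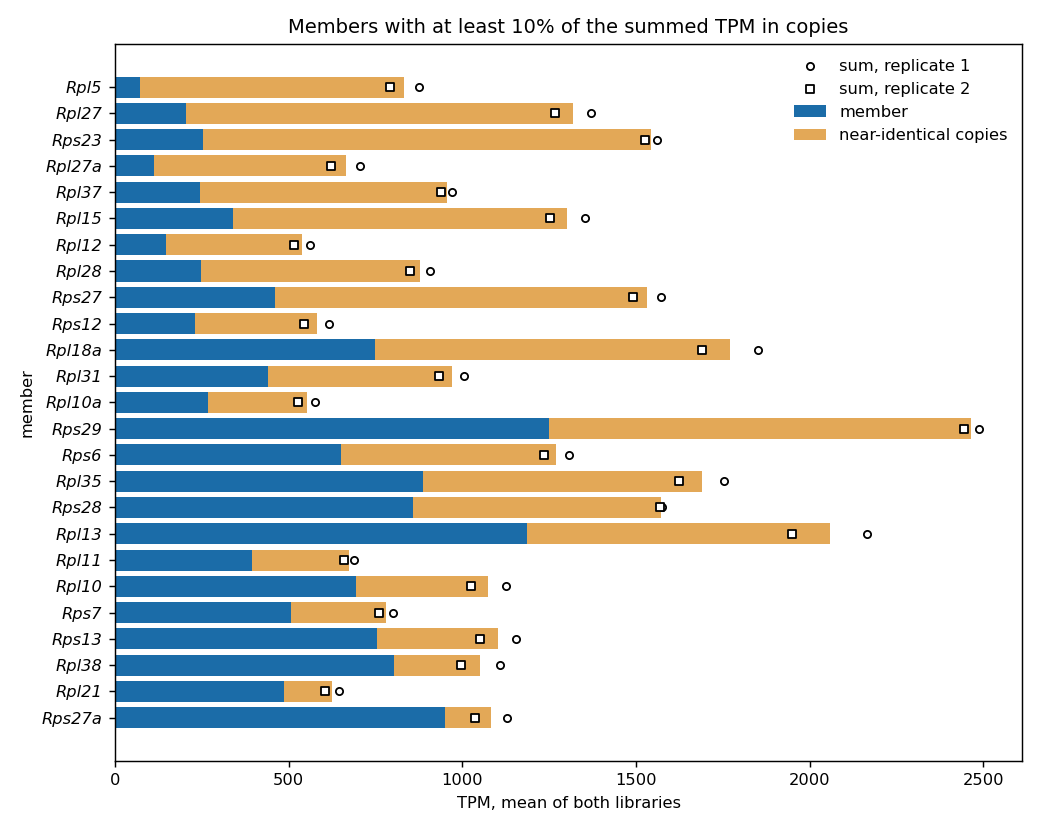
Bars give mean TPM over both libraries of the 25 members with at least 10% of the summed TPM in copies, with the member in blue and its near-identical copies in orange; the circle and square mark the sum in replicates 1 and 2. For Rpl5, Rpl27, Rps23 and Rpl27a the orange part takes over 75% of the bar.

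The transcript tables divided the members among 371 annotated transcripts. Transcripts of protein-coding type held 91.4% and 91.2% of the members' TPM, processed transcripts without a coding annotation 3.99% and 4.17%, retained-intron transcripts 2.86% in each library, and transcripts subject to nonsense-mediated decay 0.510% and 0.469%. The same transcript led in both libraries for 80 of 80 members at 1 TPM or more. It was of protein-coding type in 75, held at least 90% of the gene's TPM in 46, and had a median share of 94.0%. Rps24, whose last exons are spliced in several ways, had 98.1% in Rps24-201 in each library. The only other Rps24 transcript quantified was Rps24-202, so these splice forms were not told apart.

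In 4 members the leading transcript was of another type. Rps20-201, annotated as retained intron, held 92.9% and 92.0% of Rps20. Rpl35-203 and Rpl23-204, both annotated as processed transcripts, held 90.7% and 89.6% of Rpl35 and 61.8% and 62.1% of Rpl23. Rpl12-201, annotated as a target of nonsense-mediated decay, held 66.4% and 63.2% of Rpl12. The leading transcript of Rpl13a, at 36.7% and 36.5%, has no entry in GENCODE M21. The largest difference between libraries was in Rpl22l1, where 1 transcript without a coding annotation held 23.8% in replicate 1 and 34.4% in replicate 2 and the leading coding transcript held 59.5% and 50.2%. In these 6 genes the annotation type is that of GENCODE M21, and the share of protein-coding messenger RNA was not measured directly.

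Introns of ribosomal protein genes are known hosts of small nucleolar RNAs, which guide modification of ribosomal RNA. On the same strand, 30 of the 83 members (36.1%) held at least 1 annotated snoRNA gene, against 1.19% of all protein-coding genes. Rpl4 held 5 and Rpl13a held 4. These snoRNA genes numbered 58, or 3.85% of 1507 annotated.

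Promoter windows from RefSeq (250 bases before to 50 after each annotated start, GRCm38) matched 63 of the 83 members, with 75 starts. A C followed by at least 7 letters that are all C or T, the form of a TOP start, was present between 10 bases before and 50 after the start on the coding strand in 45 of 75 member starts (60%), and in 16.5% of 32851 starts of all genes. The shorter motif CTTTCC in the same window was in 24.0% of member starts and 2.59% of all starts. The motif CCGGAAG, bound by ETS-family factors, was within the full window on either strand in 36% of member starts and 8.86% of all. TATAAA was in 9.33% of member starts and 13.6% of all. CTTTCC can lie inside the longer pyrimidine run, so these are not separate counts.

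In 10 members the pyrimidine run began within 3 bases of the annotated start. The 4 most abundant of these are shown, from 10 bases before to 20 after the start and with the run in capitals, beside the windows of the 3 paralogues with few or no counts. The windows are Rps18 at chr17:33955646-33955675 and Rpl13a at chr7:45128726-45128755, both minus strand, and Rpl18 at chr7:45718061-45718090 and Rpl38 at chr11:114668570-114668599, both plus strand. Rpl10l is at chr12:66284382-66284411 (minus), Rpl39l at chr16:10170218-10170247 (plus), and Rpl3l, at the more upstream of its annotated starts, at chr17:24727816-24727845 (plus).
Rps18: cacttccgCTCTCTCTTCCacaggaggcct
Rpl13a: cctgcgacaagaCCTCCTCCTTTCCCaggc
Rpl18: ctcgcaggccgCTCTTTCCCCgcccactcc
Rpl38: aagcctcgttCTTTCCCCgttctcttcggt
Rpl10l: cctccattttgcggctggcggtgggcacgc
Rpl39l: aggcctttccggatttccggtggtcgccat
Rpl3l: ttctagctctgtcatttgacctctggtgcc

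None of the 3 windows of Rpl10l, Rpl39l and Rpl3l holds such a run of 8 or more letters in these 30 bases, but this start of Rpl3l has a run of 9 letters further on, from 31 bases after the start, and counts among the 45. A match is a description of the letters and not of a start site in use.

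The log2 ratios between the pools were small. An exact binomial test of each gene's counts, scaled by TMM, called 0 of 80 members at a Benjamini-Hochberg adjusted p of 0.05 together with a change past 1 on the log2 scale, against 3.09% of 16787 genes tested. Of 12077 protein-coding genes that reached 1 TPM in each library 0.19% were called, so the members' count is near that background. The test compares 2 libraries and no condition, covers counting error only and holds no spread between replicates. At the adjusted p alone 42 of 80 members (52.5%) passed, 41 of them lower in replicate 2, against 29.6% of all genes, and 47 had an unadjusted p below 0.05. The members' counts run to 42699 in a library, so that ratios near 0 pass this test: the log2 ratio of replicate 2 to replicate 1 ran from −0.26 (Rps12) to 0.054 (Rpl22l1), with a median of −0.047. It was below 0 in 68 of 80 members (85%), against 51.9% of all genes tested, whose median was −0.0078.

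Rps12 had the lowest ratio, with 2719 and 1825 estimated counts (adjusted p = 6.79e-08, exact binomial test). Rpl27a followed at −0.17 (adjusted p = 1.1e-04, exact binomial test) and Rpl27 at −0.14. These 3 members have near-identical copies that held 55.6% or more of the estimated counts of member and copies. Next came Rpl19 (−0.137), with 5.34% in copies, and Rpl15 (−0.132), with 57.8%. Rpl5 and Rps23, with 87.9% and 71.7% in copies, were at −0.018 and −0.016. The part of copies in these ratios was not tested. The 12 members above 0 included Rpl22l1, Rps6 (0.047), Rpl10 (0.041) and Rpl7l1 (0.040). Rps6 was the only one of the 12 with an adjusted p below 0.05 (0.031, exact binomial test). Copies held 44.2% of the estimated counts of Rps6 and its copies, and 30.9% in the case of Rpl10. The lists of mitochondrial ribosomal proteins and other TOP RNAs were on the same side, and the ribosome assembly list was not. Of 77 mitochondrial ribosomal protein genes 63 were below 0, with a median of −0.064. Of 16 other TOP RNAs, such as Eef1a1 (−0.094), 15 were below 0, with a median of −0.045. Of 35 ribosome assembly genes 15 were below 0, with a median of 0.020. Some markers of other cell types moved too: the 4 globins were lower in replicate 2 (log2 ratios −0.19 to −0.089, summed level 10130 and 8935 TPM). The 4 liver markers summed to 7.96 and 3.32 TPM, and Alb (−2.87) and Afp (−1.12) passed the call for a difference. Counts were 40 and 4 for Alb and 263 and 97 for Afp. Neuron markers summed to 14.1 and 11.3 TPM over 3 genes, of which 2 reached 1 TPM. The limb mesenchyme markers ran from −0.38 (Pitx1) to 0.18 (Tbx5), and the skeletal muscle markers from −0.21 (Actc1) to 0.49 (Ckm). The part of these cell types in the members' shift was not tested.

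**Figure D4:**
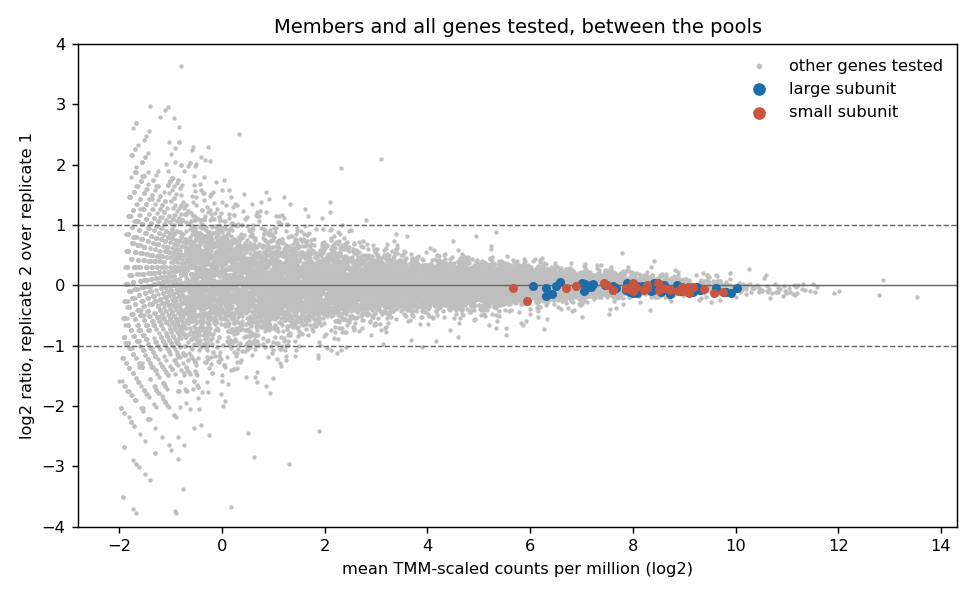
Each point is a gene tested, with its mean TMM-scaled CPM on a log2 axis across and the log2 ratio of replicate 2 to replicate 1 up; large-subunit genes are blue, small-subunit genes orange-red, other genes grey, and dashed lines mark a ratio of 1 in size. All 80 members tested lie between −0.26 and 0.054, and 31 other genes lie outside the plotted ratios.

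Genes outside the set that belong to or work with the ribosome covered a wide range. The further ribosomal proteins Fau, Rack1 and Rpl36al fall outside the name pattern and, with Rps27rt, stood between 461 and 1070 TPM by mean. All 35 ribosome assembly genes found in the tables were at 1 TPM or more, 9 at 100 TPM or more, with medians of 62.6 and 60.9 TPM. Npm1 (1195 and 1131 TPM), a nucleolar chaperone, Ncl (377 and 400 TPM), nucleolin, and Nop56 (302 and 300 TPM), of the box C/D snoRNA particles, were the highest. Rrp12 (13.2 TPM), Efl1 (17.4 TPM) and Polr1a (17.9 TPM), the largest subunit of RNA polymerase I, were the lowest by mean.

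All 7 genes listed as chaperones of ribosomal proteins were above 1 TPM. Nap1l1 (285 and 268 TPM), listed without a ribosomal protein of its own, was the highest. Bccip (189 and 179 TPM), which binds Rpl23, and Aamp (173 and 165 TPM) followed. Tsr2, which binds Rps26, was at 45.0 and 33.3 TPM, Pdcd2, which binds Rps2, at 42.4 and 36.2 TPM, and Heatr3, for Rpl5 and Rpl11, at 41.1 and 43.6 TPM. Other TOP RNAs had medians of 365 and 338 TPM over 16 genes, of which Gas5 is annotated as a processed transcript. By mean they ran from Eif3f (74.2 TPM), Eif4b (103 TPM) and Eif3e (233 TPM) to Npm1, Hnrnpa1 (1188 TPM) and Eef1a1 (4072 TPM). Npm1 and Nap1l1 are in this list as well as in the assembly and chaperone lists.

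Across the 77 members without an l suffix, mean TPM was weakly related to gene features. Spearman's rho was −0.29 with effective length (Pearson's r on log2 values −0.27), −0.0044 with coding length (r −0.10), 0.29 with the GC content of the coding sequence (r 0.25) and −0.078 with the number of exons (r −0.081). TPM is itself computed per effective length, and all points come from the same 2 libraries. The members lay on 19 chromosomes, with 14 on chromosome 7 and 4 on the X chromosome (Rpl10, Rps4x, Rpl36a and Rpl39).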

How the data were processed

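Total RNA-seq of 2 limb pools was analysed. Per the file headers and the text record beside them, the authors deposited, for each library, estimated (expected) counts, TPM and posterior mean TPM, FPKM, bounds of TPM as a signal interval, posterior deviations and lengths per gene, and expected counts, TPM and each transcript's percent of its gene, for mm10 with GENCODE M4. An aligner or quantifier was not given in the sources used here. The TPM total includes spike-ins.

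Gene IDs were matched to GENCODE M21 symbols (42462 of 43346). Expected counts were rounded and each gene with at least 20 counts over both libraries was tested between libraries by a two-sided exact binomial test (SciPy 1.17.1), scaled by TMM (edgeR 4.0.16), with Benjamini-Hochberg adjustment over all such genes. Log2 ratios used a prior count of 0.5, and pair ratios a pseudocount of 0.1 TPM. Copies were found with blastn 2.17.0 on the coding sequence of each member's most abundant complete coding transcript. SD is over the 2 libraries.

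The members and lists were chosen with earlier results of these data known. Any member could be named; full values were given for the 10 highest and 10 lowest, the extremes of each subunit, paralogues with partners, members whose leading transcript is not protein-coding, and a set of members with known roles; a few genes that this rule covers are not reported here. Alternatives were DESeq2 1.42.0 size factors or total counts, other filters, folds and pseudocounts, posterior mean TPM, FPKM, removal of spike-ins, and each library left out.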

Additional observations from a re-analysis of the deposited data

How the results depend on the processing

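No member passed the between-pool test with DESeq2 size factors, with total count scaling, with all genes of at least 1 count or at a log2 ratio of 0.5. With DESeq2 size factors 40 members passed the adjusted p alone, and with total counts 39; 65 and 62 members were then below 0. No paired analysis was possible because the labels give 1 group. The ratio of subunit medians was 0.858 over members of at least 1 TPM, 0.886 without the l-suffix paralogues and, in an alternative chosen after seeing the data, 0.810 with copies added. The members' share of TPM was 7.44% without spike-ins. The log2 ratios of the pairs with few or no counts followed the pseudocount: at 1 TPM they were −9.99 (Rpl3l), −9.44 (Rpl10l) and −8.18 (Rpl39l), against −12.98, −12.76 and −9.73, and with posterior mean TPM −11.87 for Rpl3l and −12.19 for Rpl10l. With copies added, chosen after seeing the data, the Rps27l ratio turned from 0.46 to −1.27 and the Rpl10l ratio was −13.39; by construction Rps27 then includes Rps27rt. The 90th over 10th percentile of members, all alternatives chosen after seeing the data, was 2.87 with copies, 3.11 with copies at the member's length, 2.89 with pseudogene copies alone, 2.86 with copies of at least 90% identity, and 4.81 to 4.84 with either library alone. The other 49 of 66 alternatives stayed within the limit set for their result, and Rps27l was the 1 direction that turned. That limit was a fixed fold for counts of members and the SD across members for the median log2 ratio. For the other results it was the SD over the libraries. Leaving out a library moves a mean over both by less than that SD, so for such means this alternative could not exceed the limit. Depth limits only Rpl10l, Rpl3l and Rpl39l.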
